A study of Nicotiana tabacum with 30 samples.

Results

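The leaves of the tobacco cultivar K326 were compared between 2 h and 4 h of a drought treatment, with 3 RNA-seq libraries at each time and 6 of the 30 libraries of the series in all. The libraries were chosen by genotype and time in their labels, and no measured value entered the choice. Nicotiana tabacum K326 is the unmutated parent, and M28 is a line derived from it by EMS, a chemical mutagen, that its submitters describe as more resistant to drought. Both genotypes were sampled at 0, 1, 2, 4 and 8 h, each time with 3 libraries of each. Seedlings were grown in pots of nutrient soil, watered fully when they had 5 full leaves, and then either left to dry or given 200 mM mannitol, an osmolyte that mimics drought. The labels do not say which of these treatments a library had. The K326 libraries at 0 h serve here only to separate change that began after 2 h from change already under way and from return towards the starting level. With 0 h as the only untreated time used here, time under drought and time of day cannot be told apart.

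When a leaf loses water, guard cells close the stomata and the hormone abscisic acid accumulates, and transcription factors that act with or without this hormone switch on genes for protective proteins, osmolytes and water channels. Genes of growth and photosynthesis commonly fall as the stress goes on. Such responses run in waves, in which early transient changes give way to later lasting ones, and the step from 2 to 4 h lies between the first changes and the last sampling at 8 h. The deposited table lists genes by ID and pairs the IDs with no name. None of the 35519 IDs was found in the RefSeq gene table of assembly ASM71507v2 (0 matched), so genes are given by ID, roles are not stated, and markers of leaf cell types could not be looked up. Tobacco carries 2 ancestral genomes, and how reads shared by near-identical copies were counted is not given in the sources used here.

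Expression was measured as FPKM, a count of sequenced fragments scaled by gene length and by library size. Of the IDs, 8832 were listed at 0 in every library, and the 19599 that averaged 1 FPKM or more across all 30 libraries were tested. The 6 libraries resembled each other closely in their totals, from 829871 to 838251 FPKM. Their relative sequencing depth, read from the steps between low values taken to be FPKM, lay between 0.942 and 1.079. Each pair of libraries gave only 2 to 14 genes for this estimate, and absolute depth in reads is unknown. Pearson correlations of log2(FPKM + 1) were 0.984 to 0.988 among the 2 h libraries and 0.987 among the 4 h libraries. Between the times they were 0.969 to 0.976, below every pair of replicates. The 0 h libraries correlated with the 2 h libraries at 0.949 to 0.956 and with the 4 h libraries at 0.923 to 0.936. In RNA from whole leaves, fewer cells of a type and less RNA per cell cannot be told apart.

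From 2 to 4 h, 1364 genes rose (6.96% of those tested) and 1164 fell (5.94%) in K326, together 2528 genes (12.9%), by limma's moderated test on log2(FPKM + 1) with a Benjamini-Hochberg adjusted p below 0.05. At least 2-fold changes were fewer, 153 upward (0.781%) and 114 downward (0.582%). On the log2(FPKM + 1) scale the strongest called changes were upward. Among genes that rose, 23 changed at least 4-fold and 8 at least 8-fold, and among genes that fell 6 changed at least 4-fold and none (0) at least 8-fold. That scale limits how far a gene of low level can fall. With 0.1 FPKM added instead of 1, the log2 change was -5.82 for Nitab4.5_0003505g0020 and 5.87 for Nitab4.5_0000517g0020. Most changes were moderate, with a median log2 change of 0.52 for genes that rose (quartiles 0.38 and 0.72) and a median size of 0.50 for genes that fell (quartiles 0.36 and 0.72). The median standard error was 0.113 and 0.119. Values at 2 h and 4 h did not overlap for 98.5% of the genes that rose and 98.2% of those that fell. Over all tested genes, 34% had no overlap, 3200 with higher and 3469 with lower values at 4 h. Leaving out K326 4 h replicate 3 lowered the number called to 1675, of which 1604 were among the 2528. When only the 6 libraries compared entered the fit, the balance turned, with 1433 genes up and 1453 down.

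**Figure D1:**
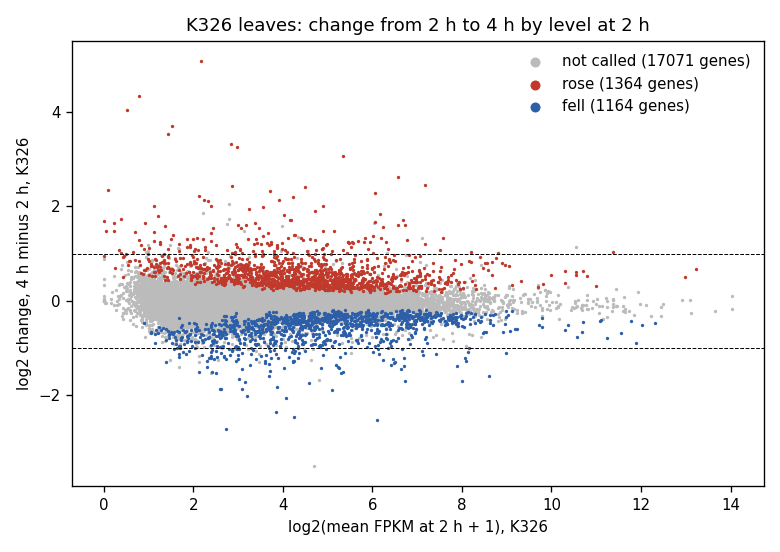
Log2 change from 2 h to 4 h in K326 (y axis) against the log2 of the mean FPKM at 2 h plus 1 (x axis), 1 point per tested gene. Red points are the 1364 genes that rose, blue points the 1164 that fell, grey points were not called, and dashed lines mark 2-fold changes; the largest changes lie upward among genes of low to middle level at 2 h.

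A larger share of abundant genes than of rare ones was called in the step. Of the 4999 genes with a mean of 1 to 5 FPKM over all libraries, 2.66% rose and 2.76% fell. Among 7813 genes of 5 to 20 FPKM, 5.55% rose and 4.51% fell. Among 5605 genes of 20 to 100 FPKM, 11.2% rose and 8.64% fell. Of the 1182 genes at 100 FPKM or more, 14.1% rose and 16.1% fell. The median standard error of the log2 change fell over the same classes from 0.204 to 0.0949, so that smaller changes could be called in abundant genes. Called changes of at least 2-fold were made by 1.12% of the genes in the lowest class (28 in each direction), 1.16% and 1.66% in the next classes and 2.28% in the highest (17 upward and 10 downward). These shares also depend on the call, and log2(FPKM + 1) understates the changes of low genes. Of the 100 most abundant genes, 12 rose and 12 fell, with log2 changes between -0.89 and 1.14 over the whole list and a median of -0.10, beside a median of -0.01 over all tested genes. Genes that rose gained 47039 FPKM in all, 5.64% of the mean total at 2 h, and 30 of them made up 50% of the gain. Genes that fell lost 30749 FPKM (3.68%), and 40 of them made up 50% of the loss. The mean FPKM total of the libraries differed by 657 between the times, and genes that were not called enter that total too.

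Fewer genes reached 1 FPKM at 4 h than at 2 h, in every library. Their number was 19230, 19329 and 19263 in the 2 h libraries and 19145, 19114 and 19141 in the 4 h libraries, a difference of -141 genes without overlap (two-sided exact permutation test over 20 rearrangements, p = 0.1, the smallest that 3 against 3 allow; adjusted over 4 measures, 0.2). At 5 FPKM instead of 1 FPKM the difference was -31.3 genes (exact permutation p = 0.6). In the K326 libraries at 0 h, 18737, 18994 and 19003 genes reached 1 FPKM, fewer than in any library at 2 h or 4 h. The 10 most abundant genes of each library held 12.4, 11.8 and 12.1% of its FPKM at 2 h and 12.5, 12.7 and 12.8% at 4 h, also without overlap (difference 0.584 percentage points, exact permutation p = 0.1, adjusted 0.2). At 0 h they held 13.8, 12.3 and 11.9%. The share of the 100 genes with the highest mean was 34.7% ± 0.675 (SD, n = 3) at 2 h and 34.1% ± 0.554 at 4 h, and the groups overlapped (exact permutation p = 0.2, adjusted 0.267). The FPKM total was 834615 ± 4298 and 835272 ± 2623, again with overlap (exact permutation p = 1, adjusted 1).

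Reading the 2 h libraries against 0 h sorted the called genes into 3 classes. A change was new where 2 h had not been called different from 0 h, continued where 2 h had already moved in the same direction, and a return where 2 h had moved the opposite way. By this rule 1219 genes (48.2% of those called) changed newly, 855 (33.8%) continued and 454 (18.0%) returned. Of the genes that rose, 550 were new, 615 continued and 199 returned. Of the genes that fell, 669 were new, 240 continued and 255 returned. Rises thus continued an earlier rise in 45.1% and falls an earlier fall in 20.6%, while new changes were 40.3% of rises and 57.5% of falls. Among changes of at least 2-fold, 89 of 153 rises continued an earlier one and 57 of 114 falls were new. The comparisons of 4 h with 2 h and of 2 h with 0 h share the 2 h libraries, so an error in those libraries moves both in opposite directions, and no test was made of the overlap. For scale, 2 h minus 0 h called 24.1% of all tested genes higher and 10.4% lower and left the rest uncalled. The shares of the classes are to be read beside these. The comparison of 4 h minus 0 h called 27.7% higher and 14.8% lower. Without K326 4 h replicate 3 the classes held 745 new and 273 returning genes, and without K326 2 h replicates 1 and 2 there were 276 and 250 returns.

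**Figure D2:**
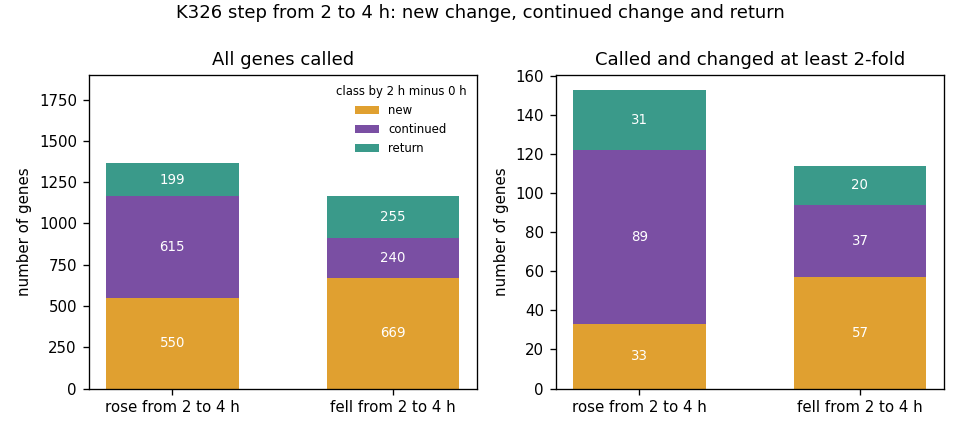
Numbers of K326 genes (y axis) that rose or fell from 2 to 4 h, split by their change from 0 to 2 h into new, continued and return; the left panel holds all called genes and the right panel those changed at least 2-fold. Continued change is the largest part of the rises (615 of 1364, and 89 of 153 at 2-fold), and new change the largest part of the falls (669 of 1164, and 57 of 114). Over all tested genes, 2 h minus 0 h called 24.1% higher and 10.4% lower and left the rest uncalled.

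New rises had, by the rule of the class, no called change from 0 to 2 h. The 550 genes lay at a median log2 difference of 0.04 from 0 h at 2 h and of 0.52 at 4 h, and their median level was 13.1 FPKM at 2 h and 19.1 FPKM at 4 h. Of them, 469 were also called above 0 h at 4 h, and 81 were not. The gene Nitab4.5_0000517g0020 was listed at 0 in all libraries of both genotypes at 0 and 1 h. In K326 its values at 2 h were 0.469, 0 and 0.856 FPKM, and at 4 h they were 18.9, 21.5 and 26.2 FPKM. The rise had a log2 size of 4.04 (SE 0.212, limma adjusted p = 5.13e-13), and all 4 h libraries stood far above all 2 h libraries. It was the 1 gene of the table with all 2 h libraries under 1 FPKM and all 4 h libraries at 5 FPKM or more, and no gene (0) did the reverse. Nitab4.5_0001401g0110, an abundant transcript, had 122, 151 and 156 FPKM at 2 h and 702, 718 and 964 FPKM at 4 h. Its log2 change was 2.46 (SE 0.328, adjusted p = 7.85e-06). Its levels at 0 h, 188 to 249 FPKM, lay between those of 2 h and 4 h, and 2 h minus 0 h was not called (log2 difference -0.62, adjusted p = 0.155). At 8 h it stood at 966 ± 56.0 FPKM (SD, n = 3).

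New falls formed the largest class. The 669 genes had a median log2 difference from 0 h of 0.02 at 2 h and -0.45 at 4 h, with median levels of 24.2 and 16.6 FPKM at 2 h and 4 h, and 518 of them were called below 0 h at 4 h. Nitab4.5_0003505g0020 had 6.55, 4.77 and 5.47 FPKM at 2 h and a listed value of 0 in each 4 h library (limma adjusted p = 0.0252). This gene was listed at 0 in 11 of the 30 libraries and was at 3.24 FPKM or more in the other 19. The zeros occur in both genotypes, and 2 of the 3 K326 libraries at 0 h hold one. Whether these zeros are absences or failed estimates was not tested, and leaving out any one of the 6 libraries ended the call (adjusted p up to 0.0788). Nitab4.5_0000044g0100 had 6.25, 12.6 and 5.01 FPKM at 2 h and 3.08, 1.36 and 0.711 FPKM at 4 h, with no overlap. It fell by 1.72 on the log2 scale (SE 0.296, adjusted p = 0.000202), and at 8 h its values were 0 to 0.126 FPKM. In M28 the same gene started higher, at 39.6 ± 3.80 FPKM at 0 h.

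Of the 6 lists, continued rises had the largest median difference from 0 h at 4 h, beside -1.24 for continued falls and 0.10 over all tested genes. The rule of both continued classes joins 2 changes in the same direction, which favours a large difference. The 615 continued rises stood at a median log2 difference from 0 h of 0.74 at 2 h and 1.29 at 4 h. Their median level went from 27.0 to 42.7 FPKM within the step. On the log2(FPKM + 1) scale Nitab4.5_0000175g0140 had the largest rise of all tested genes; with a pseudocount of 0.1 FPKM its log2 change was 5.40, and Nitab4.5_0000517g0020 rose by 5.87. It had 4.28, 2.34 and 3.96 FPKM at 2 h, against 0.0967 to 0.451 FPKM at 0 h, and 163, 147 and 137 FPKM at 4 h. The log2 change over the step was 5.07 (SE 0.151, limma adjusted p = 4.32e-18), after 1.86 from 0 to 2 h. Nitab4.5_0001171g0080 was listed at 0 in all K326 libraries at 0 and 1 h. It reached 0.674, 1.08 and 0.429 FPKM at 2 h and 31.0, 30.6 and 38.3 FPKM at 4 h, a log2 change over the step of 4.32 (SE 0.202, adjusted p = 5.77e-14). Its earlier rise, to levels near 1 FPKM, passed the test of 2 h against 0 h (adjusted p = 0.00407). Nitab4.5_0000517g0020, which the rule classed as new, had similar levels at both times.

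Continued falls were fewer than continued rises, and by the rule of the class they lay below 0 h at both times. The 240 genes stood at a median log2 difference from 0 h of -0.59 at 2 h and -1.24 at 4 h. Their median level was 53.4 FPKM at 0 h, 28.3 FPKM at 2 h and 17.8 FPKM at 4 h. Nitab4.5_0000309g0200 had 301, 361 and 385 FPKM at 0 h and 64.2, 81.3 and 58.6 FPKM at 2 h. At 4 h it was at 14.9, 7.55 and 11.6 FPKM, and the log2 change within the step was -2.51 (SE 0.235, limma adjusted p = 3.06e-08). Over the 2 h before, the log2 change was -2.35. Nitab4.5_0004186g0020 had 20.7, 19.2 and 14.3 FPKM at 2 h and 4.12, 1.76 and 1.83 FPKM at 4 h, after 33.6 ± 1.28 FPKM at 0 h. Its log2 change over the step was -2.46 (SE 0.300, adjusted p = 2.09e-06), and none of its libraries at 2 h and 4 h overlapped.

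Returns mostly ended near the level of 0 h. Of the 454 genes, 333 were not called different from 0 h at 4 h, 88 were still called on the side they had moved to by 2 h, and 33 had passed 0 h to the other side. The 199 genes that rose had a median log2 difference from 0 h of -0.59 at 2 h and -0.02 at 4 h. The 255 that fell were at 0.54 and 0.04. A gene not called at 4 h may still differ from 0 h by less than these libraries resolve. The pair Nitab4.5_0000134g0180 and Nitab4.5_0000134g0170, whose IDs follow each other on one scaffold, took the same course. Nitab4.5_0000134g0180 had 17.7, 19.8 and 26.4 FPKM at 0 h and 2.98, 3.86 and 5.27 FPKM at 2 h. At 4 h its values were 11.6, 17.59 and 41.0 FPKM, a log2 change over the step of 2.12 (SE 0.416, limma adjusted p = 0.00094). Nitab4.5_0000134g0170 went from 3.25, 4.84 and 4.65 FPKM at 2 h to 9.81, 17.7 and 43.8 FPKM at 4 h (log2 change 2.00, SE 0.395, adjusted p = 0.000957). In both genes the 4 h libraries spread widely, with replicate 3 highest, yet all lay above the 2 h libraries. Whether these IDs share reads was not tested.

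Of the genes that returned downward, Nitab4.5_0000381g0130 rose from 4.07, 1.77 and 3.52 FPKM at 0 h to 18.5, 15.5 and 13.5 FPKM at 2 h. At 4 h it was back at 3.51, 2.14 and 3.55 FPKM. The log2 change over the step was -2.06 (SE 0.384, limma adjusted p = 0.000537), and 4 h minus 0 h was 0.01. Nitab4.5_0002255g0010 had 0.284 to 0.684 FPKM at 0 h and 12.9, 10.7 and 11.99 FPKM at 2 h. It fell to 5.61, 1.75 and 3.19 FPKM at 4 h (log2 change -1.60, SE 0.473, adjusted p = 0.0245) and was still called above 0 h (adjusted p = 0.00931). Leaving out any one of 5 of the 6 libraries ended its call over the step, with adjusted p up to 0.128 without K326 4 h replicate 2.

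**Figure D3:**
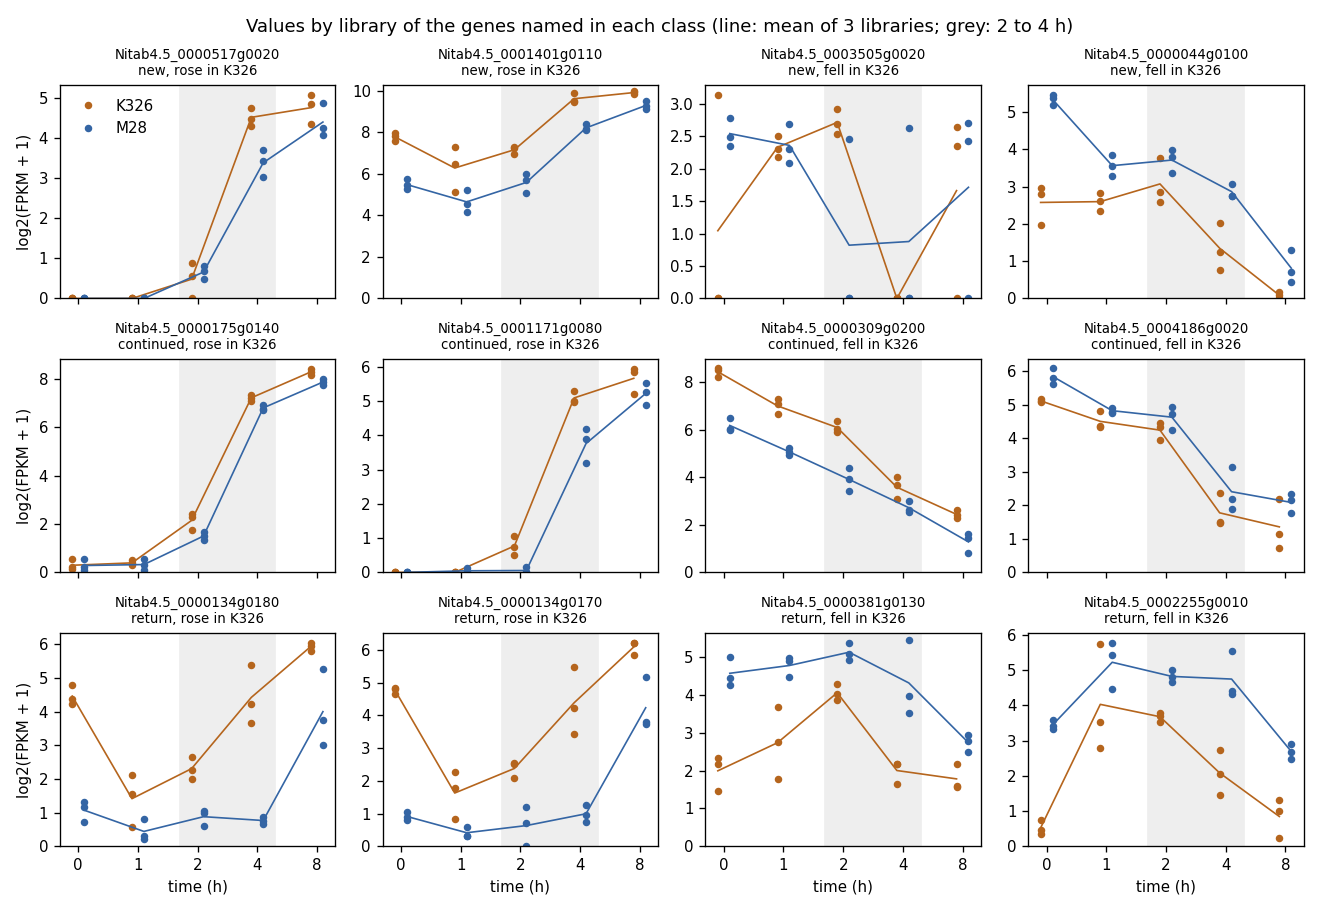
Log2(FPKM + 1) (y axis) at 0, 1, 2, 4 and 8 h (x axis, times evenly spaced) of the 12 genes named by class, 1 point per library and a line through the mean of 3 libraries, in K326 (brown) and M28 (blue). Within the grey band from 2 to 4 h, the K326 libraries of each gene do not overlap between the times; M28 follows the K326 direction clearly in the genes of the middle row and hardly moves in the genes at the left of the bottom row.

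The 8 h values enter no contrast that formed the classes, though these libraries share the fit's residual spread and the filter on level. New rises had gone on, from a median log2 difference from 0 h of 0.52 at 4 h to 0.85 at 8 h. Continued rises stood at 1.29 and 1.37, new falls at -0.45 and -0.52, and continued falls at -1.24 and -1.43. Over all tested genes the median was 0.10 at 4 h and 0.21 at 8 h. The median of the upward returns was -0.02 at 4 h and 0.36 at 8 h. Their quartiles at 8 h were -0.17 and 0.71, so part of these genes still lay below 0 h. The median of the downward returns went from 0.04 to -0.10. The 4 h libraries chose these lists and the 8 h differences share the 0 h libraries with them, so the medians are a description. For scale, 6028 genes (30.8%) were called from 0 to 1 h, 3544 (18.1%) from 1 to 2 h and 5479 (28%) from 4 to 8 h in K326. The step from 2 to 4 h thus had the fewest calls of the 4 steps. The steps differ in length and share libraries, and the difference between these counts was not tested.

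**Figure D4:**
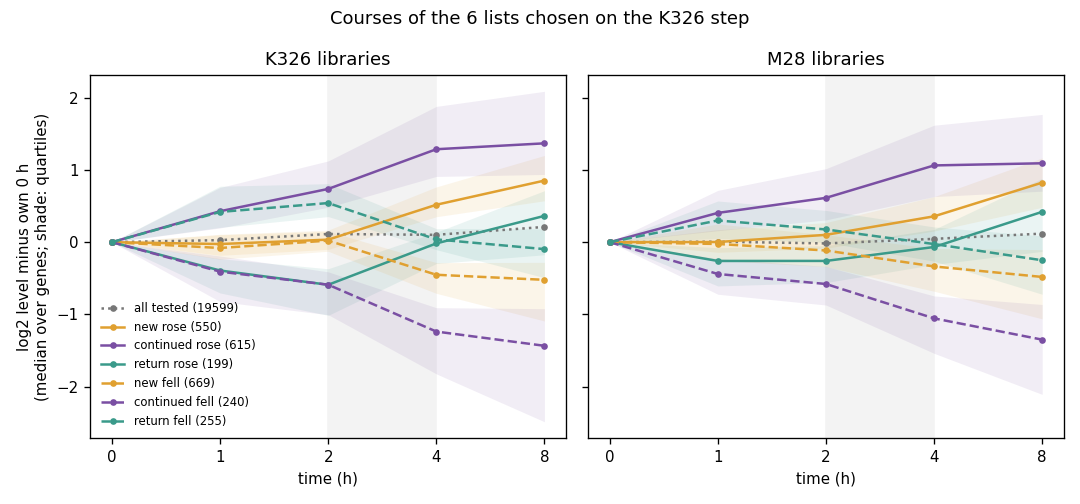
Median over genes of the log2 level minus the same genotype's 0 h level (y axis) at each time (x axis, evenly spaced) for the 6 lists chosen on the K326 step and for all tested genes, in K326 libraries (left) and M28 libraries (right); shading spans the quartiles. In M28, which is in none of the contrasts behind the lists, continued rises reach 1.06 and continued falls -1.05 at 4 h, and the returning lists turn in the same direction from smaller excursions.

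The same step was read in M28, whose values enter none of the contrasts that chose the K326 genes, although its libraries entered the same fit and filter. In M28 1075 genes rose (5.48%) and 707 fell (3.61%), together 1782 (9.09%), and without M28 2 h replicate 2 the number was 1127 (620 upward and 507 downward). The split between directions in M28 depended on scaling, with 60.3% of calls upward as deposited, 63.8% with equal totals, 40.3% with median-of-ratios factors and 44.9% after quantile normalization. In K326 it was 54.0% as deposited and 52.1 to 54.9% under these 3 scalings. Of the 1364 genes that rose in K326, 623 (45.7%) rose and 1 fell in M28, and the median log2 change in M28 was 0.33, beside 0.07 over all tested genes. Of the 1164 that fell in K326, 401 (34.5%) fell and 1 rose, with a median of -0.23. One residual spread per gene served both genotypes, so the calls are not fully independent. For the 153 genes that rose at least 2-fold, the median log2 change was 1.28 in K326 and 0.99 in M28, and 105 were called upward there. For the 114 that fell at least 2-fold it was -1.21 and -0.97, with 67 called downward. A list chosen in K326 favours large K326 values. In the opposite reading, the 94 genes that rose at least 2-fold in M28 (0.48% of those tested) had medians of 1.31 in M28 and 1.31 in K326, and the 107 that fell (0.546%) had -1.27 and -1.02. Across all tested genes, not independent of each other, the log2 changes of both genotypes had a Pearson correlation of 0.563 and a Spearman correlation of 0.438.

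Calls in M28 are given class by class, beside 5.48% rising and 3.61% falling among all tested genes. Of continued changes, 396 of 615 rises (64.4%) and 148 of 240 falls (61.7%) were called in the same direction. Of new changes, 185 of 550 rises (33.6%) and 180 of 669 falls (26.9%) were. Returns were called in 42 of 199 rises (21.1%) and 73 of 255 falls (28.6%). The classes also differed in level, with medians at 2 h in K326 of 27.0, 13.1 and 17.4 FPKM for continued, new and returning rises and 28.3, 24.2 and 29.1 FPKM for the falls; neither the difference between these shares nor the part of level in it was tested. The median log2 changes in M28 were 0.43, 0.28 and 0.19 for continued, new and returning rises and -0.51, -0.18 and -0.20 for the falls. Before the step, at 2 h, the returning lists stood in M28 at median log2 differences from its own 0 h of -0.26 for upward returns and 0.18 for downward returns, where K326 had -0.59 and 0.54. In these lists the K326 values are those that chose the genes. Named genes showed the same range. Nitab4.5_0000175g0140 rose in M28 from 1.52, 2.19 and 1.85 FPKM to 104, 121 and 109 FPKM (log2 change 5.30, SE 0.151, limma adjusted p = 1.46e-18). Nitab4.5_0000134g0180 had 0.978, 1.06 and 0.526 FPKM at 2 h in M28 and 0.570, 0.840 and 0.697 FPKM at 4 h (log2 change -0.11, SE 0.416, adjusted p = 0.912). Mean levels of this gene at 0 h already differed, with 1.13 FPKM in M28 and 21.3 FPKM in K326. At 8 h they were 18.8 and 60.5 FPKM. The difference of its log2 changes over the step, M28 minus K326, was -2.23 and did not pass the test (SE 0.589, limma adjusted p = 0.133).

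**Figure D5:**
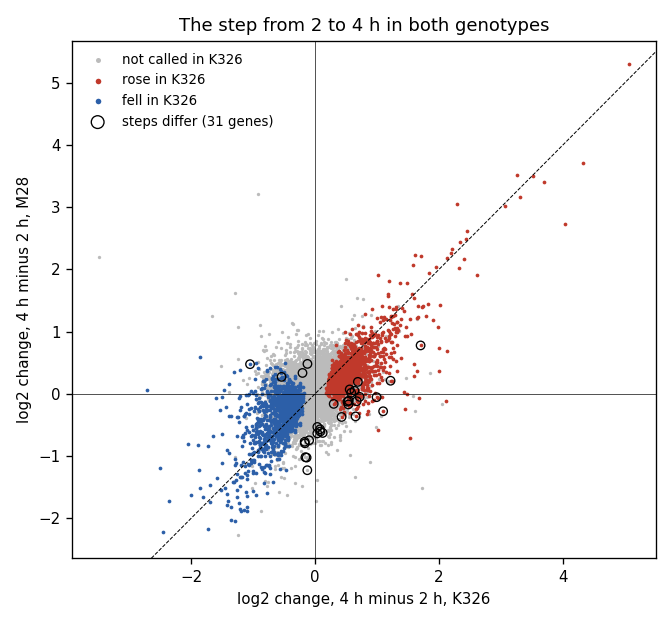
Log2 change from 2 h to 4 h in M28 (y axis) against that in K326 (x axis), 1 point per tested gene, with genes that rose in K326 in red, those that fell in blue and the dashed line at equal change. Black rings mark the 31 genes whose steps differed between the genotypes, most of them below the line.

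Whether the step itself differed between the genotypes was tested gene by gene as the difference of the log2 changes, M28 minus K326. It was called for 31 genes (0.158%), 27 with a lower (0.138%) and 4 with a higher change in M28 (0.0204%), while 2003 genes had an unadjusted p under 0.05. Of the 27, 14 rose in K326 with no call in M28, 11 fell in M28 with no call in K326, 1 moved in opposite directions, up in K326 and down in M28, and 1 rose in both. Among the 18 of the 31 genes that were called in K326, 10 were returns, 6 new and 2 continued. Of all 2528 genes called in K326, 18.0% were returns, 48.2% new and 33.8% continued. The difference of the steps and the classes share the K326 2 h libraries, so an error there enters both, and these counts were not tested. Nitab4.5_0000009g0480 had 14.5, 16.8 and 12.9 FPKM at 2 h and 35.4, 31.0 and 31.5 FPKM at 4 h in K326. In M28 it had 27.2, 23.9 and 28.9 FPKM at 2 h and 22.0, 23.2 and 20.1 FPKM at 4 h. The K326 libraries rose without overlap from below to above the M28 level, and the difference of the log2 changes was -1.38 (SE 0.163, limma adjusted p = 7.38e-05). At 8 h this gene stood higher in both genotypes, at 58.9 ± 6.51 FPKM (SD, n = 3) in K326 and 43.9 ± 2.83 FPKM in M28. Nitab4.5_0000129g0260, one of the abundant transcripts, kept 556, 501 and 505 FPKM at 2 h and 411, 544 and 484 FPKM at 4 h in K326, and those groups overlapped. In M28 it went from 405, 402 and 325.7 FPKM to 166, 204 and 120 FPKM, a difference of -1.10 (SE 0.231, adjusted p = 0.0456). Leaving out single libraries ended this call in 10 of 12 cases, the exceptions being M28 4 h replicate 2 and K326 4 h replicate 1, with adjusted p up to 0.141. At 8 h Nitab4.5_0000129g0260 was at 752 ± 21.9 FPKM (SD, n = 3) in K326 and 572 ± 28.9 FPKM in M28.

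No gene with a higher change in M28 met the rule for naming. Of those 4, Nitab4.5_0000706g0050 had the largest difference and was chosen after its values were seen. It had 5.71, 4.66 and 3.69 FPKM at 2 h and 2.30, 1.64 and 1.295 FPKM at 4 h in K326, and 2.04, 2.98 and 1.86 FPKM and then 3.68, 2.64 and 4.46 FPKM in M28, where the times overlapped (difference 1.53, limma adjusted p = 0.0395). Over the 27 genes with a lower change in M28, the median log2 difference between the genotypes, M28 minus K326, was 0.19 at 2 h and -0.51 at 4 h, values that the choice of genes used. At 0 h and 8 h, which are outside the tested contrast, it was -0.09 and -0.05, beside 0.22 and 0.13 over all tested genes. The count of 31 changed with the libraries in the fit: it was 126, of which 77 were lower in M28, in a fit restricted to the 4 groups compared, and 11 without K326 4 h replicate 3, 12 without M28 4 h replicate 3 and 47 without K326 4 h replicate 1. Without M28 2 h replicates 1 and 3 it was 20 and 14, without M28 4 h replicate 2 it was 20, 16 and 17 without K326 2 h replicates 1 and 2, and without K326 4 h replicate 2 it was 18.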

How the data were processed

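Leaf RNA of 30 libraries was measured by RNA-seq. The authors deposited FPKM values per gene and library, with replicates not pooled; the unit was taken from the name they gave the table and from its values, and TPM over a larger gene set could not be told apart from FPKM. Per the submitters' processing notes, the tools were HISAT2, featureCounts, FastQC and Trimmomatic; their versions and settings, the genome build and how FPKM was computed are not given in the sources used here. Nothing in the labels ties libraries to separate plants or pots, and the p-values therefore reflect only how far these samples spread, which may be technical.

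FPKM values were used as log2(FPKM + 1), which understates the changes of low genes, for the 19599 genes that averaged 1 FPKM or more across all 30 libraries. All 10 groups entered 1 fit without covariates in limma 3.58.1 (R 4.3.3) with moderated variances that follow a trend with level, tested on simulated data, and p-values were adjusted by Benjamini-Hochberg over all tested genes within each comparison. Named genes had an adjusted p below 0.05, a change of 2-fold or more, a mean of 5 FPKM or more at 1 of the times and values that did not overlap; the first 2 per direction in each class were taken by size of change, since IDs carry no names. For the difference between genotypes the rule asked that any pairing of 4 h with 2 h libraries keep the genotypes apart. Genes, classes and tests were chosen with earlier results of these data known. Relative depth was estimated from 2582 genes detected in a minority of the libraries: the ratios of their values between libraries pile up where both hold the same number of reads, and 15 of 15 library pairs fitted 1 set of depths within 0.005 on the log2 scale. The pile used for a pair held 2 to 14 genes within 0.002 on that scale. The estimate takes the values as FPKM, and for TPM the ratio would not be depth. The table had 0 value columns outside the 30 libraries. Alternatives were other scalings, pseudocounts, filters, fits and left-out libraries.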

Additional observations from a re-analysis of the deposited data

Results flagged for a closer look

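The difference of the steps between the genotypes was called for 31 genes by a test of the difference itself. The genes named under it were Nitab4.5_0000009g0480, with a difference of the log2 changes, M28 minus K326, of -1.38 (limma adjusted p = 7.38e-05), and Nitab4.5_0000129g0260, with -1.10 (adjusted p = 0.0456). In the first the K326 libraries rose and the M28 libraries were not called (adjusted p = 0.139). In the second the M28 libraries fell and the K326 libraries were not called (adjusted p = 0.686).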

How the results depend on the processing

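The K326 step was called for 1675 to 2114 genes with single libraries left out and for 2400 to 2886 under the 8 other settings, and its 3 classes stayed within 1.5 times of their counts under those settings. With single libraries left out, new changes numbered 745 to 1380, continued changes 599 to 849 and returns 250 to 411, the M28 step 1127 to 1347 genes, and the difference of the steps 11 to 47. That difference was called for 19 genes without a filter on low values, where more genes were tested, and for 126 with only the groups compared, where the cause was not tested. Counted at 5 FPKM, detected genes differed in number by -31.3 (exact permutation p = 0.6), against -141 at 1 FPKM. With single libraries left out, that difference at 1 FPKM was -163 to -113, the FPKM total differed by -1715 to 2475, the share of the 100 genes by -0.914 to -0.291 percentage points, and the share of the own 10 by 0.432 to 0.736. Named genes kept their direction under every setting run. Nitab4.5_0000129g0260 had adjusted p of 0.0503 after quantile normalization and 0.0815 without a filter. Replicate numbers did not pair the 2 h and 4 h libraries of K326 (correlations of same-numbered deviations 0.0181, -0.0695 and 0.103; 2 of 6 libraries correlated best with their own number). With the replicate block, 2446 genes were called in K326, 1621 in M28 and 25 for the difference. Depth in reads is unknown, which limits what can be said of low genes.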

Other observations

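IDs that follow each other in gene number on the same scaffold field were compared, without a check of their positions. Of 11499 such pairs of tested genes, 76 had both members rise and 65 both fall in the K326 step, and 84 held 1 of each direction. The partner of a gene that rose also rose in 9.22% of cases, beside 7.17% of all members of such pairs, and the partner of a gene that fell also fell in 9.66%, beside 5.85%. Of the 76 and 65 pairs, 27 and 14 had both members called in the same direction in M28 as well. The pair of returning genes named above is 1 of the 76. These shares are a description, and shared reads between neighbouring copies were not tested.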
